A study of Mus musculus with 10 samples.

Results

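Intronic polyadenylation (IPA) sites of the heterogeneous nuclear ribonucleoprotein (hnRNP) genes, of Sfpq and of Rbfox2 were taken from the deposited comparison tables by gene symbol: every row whose symbol starts with Hnrn or Hnrp, or is Sfpq or Rbfox2. This gave 22 table rows of 2311 in all, at 22 distinct positions, in 12 of 1453 genes. Polyadenylated 3' ends were sequenced from mouse mammary tumour lines in culture, with 2 libraries in each of 5 groups. The groups were 4T1 cells that received antisense morpholino oligonucleotides to U1, a small nuclear RNA, with the delivery reagent Endo Porter (4T1-U1-ASO), 4T1 cells, 4T07 cells, 67NR cells and 168FARN cells; all 4 lines grew in the same serum-supplemented medium. The labels call 4T1 and 4T07 invasive and 67NR and 168FARN non-invasive, so each class rests on 2 lines. The series design speaks of a mock-transfected control, whereas the labels of the 4T1 libraries name no treatment. Whether replicates were grown separately is not said in the labels, so a p-value here reflects the variation of these particular libraries, possibly of technical origin.

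HnRNP proteins coat nascent transcripts in the nucleus and steer splicing, 3' end formation, export and decay of RNA. Sfpq is a core protein of paraspeckles and works in splicing and transcription with its partner Nono, and Rbfox2 is a sequence-specific splicing regulator. U1 recognises 5' splice sites and, by binding within introns, also keeps transcripts from being cleaved and polyadenylated before their end. An IPA site is such an early 3' end. A transcript that ends there lacks the last exon, so the readout used is IPA usage, the percentage of a library's reads at the site among its reads at the site and at the gene's last exon.

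The question of the first comparison is what blocking U1 does to these sites in 4T1 cells. IPA usage rose at 19 sites in 11 of the 12 genes and fell at 1 site, in Rbfox2, by the authors' own test, whose limit is an adjusted p of 0.1 for every listed site. Of all 1561 sites listed for this comparison, 87.6% were higher and 12.4% lower. The members' split is therefore close to that of the table as a whole. At the 19 sites the mean usage was 0.727% to 68.2% in 4T1-U1-ASO, and the highest mean in 4T1 was 41.1%. It was under 1% at 11 of the 19 sites in 4T1. The median ratio of usage over the 19 sites was 4.45, with the 2 sites that had no read in 4T1 set at a floor of 3 reads over the group. Over the 1368 listed sites that were higher, this median was 4.39. At none of the 20 sites did the usage of the 2 groups overlap, and the same held at 99.9% of the 1561 listed sites, which the authors' test had selected. Members' sites were between 82 and 1701 bp wide, and 7 genes had more than 1 of them. Sites of 1 gene share the same last-exon reads, so they are not separate measurements. Read counts below are whole reads before scaling for depth. In the authors' normalized signal 1 read counted as 0.798 and 0.788 in the 4T1-U1-ASO libraries and as 1.39 and 1.03 in the 4T1 libraries.

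**Figure D1:**
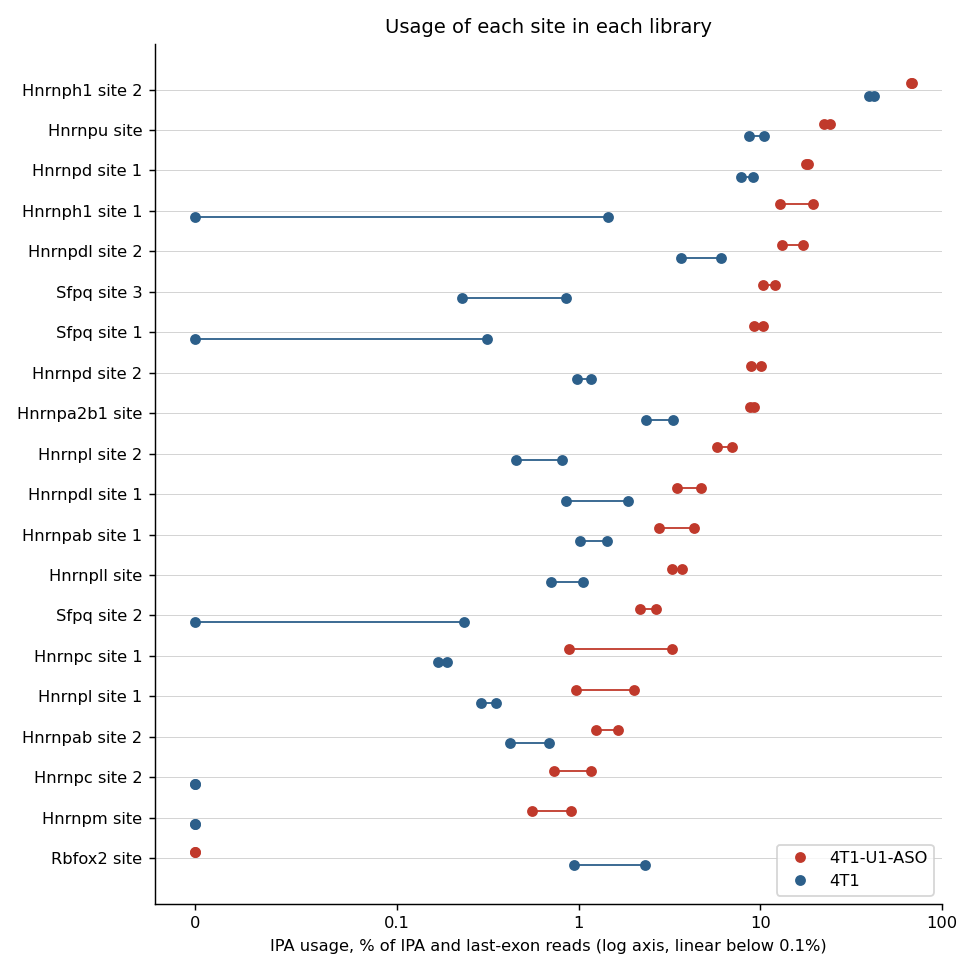
IPA usage (percent of site and last-exon reads, log axis that is linear below 0.1%) at the 20 sites in the U1 comparison, with 1 point per library and a line joining the 2 libraries of a group (4T1-U1-ASO above 4T1 in each row). The 4T1-U1-ASO points lie to the right of the 4T1 points at 19 sites and to the left at the Rbfox2 site.

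The highest-ranked member sites were in Sfpq. Its first site, chr4:126704982-126705337 on the plus strand of mm9, is listed for a coding and a noncoding transcript. It had 85 and 69 reads in 4T1-U1-ASO, against 0 and 4 reads in 4T1. The 2 groups were far apart, and 1 of the 2 4T1 libraries had no read there. Usage was 9.81% ± 0.790 in 4T1-U1-ASO and 0.156% ± 0.220 in 4T1 (SD, n = 2 each). The log2 fold change was 4.81 with a standard error of 0.57 in the authors' deposited table, with an adjusted p listed as 0.000. By its test statistic this site ranked 4 among the 1561. The ratio of pooled usage was 53.1, with a counting interval (95%, exact) of 20.3 to 197. This interval, like the others below, covers counting error alone, since PCR copies were not marked by molecular identifiers.

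Downstream in Sfpq lay 2 further sites, both listed for the noncoding transcript only. The second, chr4:126711406-126711611, had 20 and 15 reads in 4T1-U1-ASO, against 0 and 3 reads in 4T1. With so few 4T1 reads, its ratio of pooled usage of 17.4 has a counting interval of 5.49 to 88.5. The third, chr4:126711727-126712745, begins 115 bp after the second ends. It had 100 and 78 reads in 4T1-U1-ASO, against 2 and 11 reads in 4T1. Both 4T1-U1-ASO libraries were again above both 4T1 libraries. Usage at the third site was 11.2% ± 1.16 in 4T1-U1-ASO and 0.540% ± 0.441 in 4T1 (SD, n = 2 each). In the authors' deposited table the log2 fold changes were 3.19 at the second site and 3.88 at the third, with standard errors of 0.64 and 0.50. The third site ranked 7 among the 1561.

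Among the hnRNP genes, Hnrnpl and Hnrnpd had the highest-ranked sites. Hnrnpl encodes a protein that binds CA-rich RNA, and Hnrnpd encodes AUF1, a regulator of mRNAs with AU-rich elements. The second Hnrnpl site, chr7:29601454-29602457 on the plus strand, had 44 and 47 reads in 4T1-U1-ASO, against 9 and 17 reads in 4T1. Its usage was 6.37% ± 0.804 in 4T1-U1-ASO and 0.631% ± 0.256 in 4T1 (SD, n = 2 each), and it ranked 11. The first Hnrnpl site, chr7:29599489-29599754, had 7 and 13 reads in 4T1-U1-ASO, against 7 and 6 in 4T1. In the authors' normalized signal its group means were nearly the same, 7.92 in 4T1-U1-ASO and 7.96 in 4T1. Its usage was 0.971% and 2.02% in 4T1-U1-ASO, against 0.351% and 0.288% in 4T1, with the 4T1-U1-ASO libraries again higher. The last exon of the gene had 714 and 630 reads in 4T1-U1-ASO and 1988 and 2076 reads in 4T1. In the authors' deposited table the log2 fold changes were 3.12 at the second site and 1.89 at the first, with adjusted p values of 0.000 and 0.017.

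Hnrnpd showed the same contrast between its sites. At the downstream site, chr5:100391056-100391337 on the minus strand, 42 and 33 reads were found in 4T1-U1-ASO, against 10 and 12 reads in 4T1. Usage there was 9.48% ± 0.832 in 4T1-U1-ASO and 1.07% ± 0.130 in 4T1 (SD, n = 2 each), and the site ranked 15. The upstream site, chr5:100393685-100393824, was well used in both groups, with usage of 17.8% and 18.2% in 4T1-U1-ASO, against 9.12% and 7.78% in 4T1. Its own reads were 81 and 75 in 4T1-U1-ASO and 85 and 102 in 4T1. The deposited log2 fold changes were 2.98 downstream and 1.19 upstream in the authors' deposited table, with adjusted p values of 0.000 and 0.013.

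Hnrnpu and Hnrnph1 held the most heavily used sites. Hnrnpu, also known as scaffold attachment factor A, binds RNA and chromatin. Its site, chr1:180260755-180260982 on the minus strand, had 528 and 405 reads in 4T1-U1-ASO, against 108 and 220 reads in 4T1, the most site reads of any member. Usage was 23.4% ± 1.25 in 4T1-U1-ASO and 9.59% ± 1.36 in 4T1 (SD, n = 2 each). The authors' deposited table gives a log2 fold change of 1.39 and an adjusted p of 0.058, which passes at 0.1 but not at 0.05. The library peak lists hold a peak at the Hnrnpu site only in 4T1-U1-ASO replicate 1 (528 reads) and 4T07 replicate 2 (186 reads). They hold none there in 4T1-U1-ASO replicate 2 or in either 4T1 library. Hnrnph1 encodes a protein that binds runs of G and takes part in splicing and 3' end choice. Its downstream site, chr11:50194813-50196513 on the plus strand, had 173 and 143 reads in 4T1-U1-ASO and 39 and 101 reads in 4T1. It took more reads than the last exon in both 4T1-U1-ASO libraries, with usage of 68.2% ± 0.621 in 4T1-U1-ASO and 41.1% ± 1.87 in 4T1 (SD, n = 2 each). In the authors' deposited table it also lies between the thresholds, with an adjusted p of 0.096. The upstream Hnrnph1 site, chr11:50193759-50194066, had 19 and 10 reads in 4T1-U1-ASO and 0 and 2 reads in 4T1, a ratio of pooled usage of 16.3 with a counting interval of 4.13 to 141.

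Hnrnpc and Hnrnpm had sites that were almost unread in 4T1. The Hnrnpc protein binds uridine tracts in introns and Hnrnpm is a splicing regulator. The second Hnrnpc site, chr14:52700846-52701217 on the minus strand, had 7 and 5 reads in 4T1-U1-ASO and none in 4T1. A count of 0 over both 4T1 libraries allows a usage of up to 0.134%. Pooled usage in 4T1-U1-ASO was 7.02 times that limit, a ratio that leaves out the counting error of the 4T1-U1-ASO reads. The Hnrnpm site, chr17:33793135-33793274 on the minus strand, had 7 and 4 reads in 4T1-U1-ASO and none in 4T1. Its pooled usage in 4T1-U1-ASO was 4.45 times the limit set by the same floor (0.165%), again without counting error. The first Hnrnpc site, chr14:52708827-52709044, had 20 and 6 reads in 4T1-U1-ASO and 2 and 2 reads in 4T1. Its 2 treated libraries differed by more than the gap between the lower of them and 4T1, with usage of 3.28% and 0.881% in 4T1-U1-ASO, against 0.189% and 0.168% in 4T1.

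Hnrnpdl, a relative of Hnrnpd, had usage of 15.2% ± 2.80 in 4T1-U1-ASO and 4.88% ± 1.72 in 4T1 at chr5:100464336-100465645 on the minus strand (SD, n = 2 each). At its other site, chr5:100465874-100466407, usage was 4.09% ± 0.883 in 4T1-U1-ASO and 1.36% ± 0.719 in 4T1, with an adjusted p of 0.099 in the authors' deposited table. Hnrnpa2b1, whose protein packages pre-mRNA and takes part in RNA transport, had usage of 9.03% ± 0.332 in 4T1-U1-ASO and 2.82% ± 0.656 in 4T1 at chr6:51411867-51412250 on the minus strand. Hnrnpll, the paralogue of Hnrnpl, had 3.48% ± 0.326 in 4T1-U1-ASO and 0.885% ± 0.253 in 4T1 at chr17:80460359-80460511 on the minus strand. Its adjusted p of 0.057 in the authors' deposited table lies above 0.05. Hnrnpab, which like Hnrnpd binds RNA through a pair of RNA recognition motifs, had usage of 3.55% ± 1.09 in 4T1-U1-ASO and 1.22% ± 0.295 in 4T1 at its upstream site, chr11:51417898-51418324 on the minus strand. At the downstream Hnrnpab site, chr11:51416087-51416201, usage was 1.45% ± 0.283 in 4T1-U1-ASO and 0.551% ± 0.187 in 4T1.

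Rbfox2 was the member whose site lost usage. The site, chr15:76916002-76916083 on the minus strand, had no read in either 4T1-U1-ASO library, against 3 and 8 reads in 4T1. The last exon of Rbfox2 had 602 and 613 reads in 4T1-U1-ASO and 317 and 336 reads in 4T1, before scaling for depth. At the authors' scaling its log2 fold change was 0.29 and did not pass (edgeR adjusted p = 0.209). A count of 0 allows a usage of up to 0.247% in 4T1-U1-ASO, and usage was 1.63% ± 0.982 in 4T1 (SD, n = 2). Pooled usage in 4T1 was 6.71 times that limit, a ratio that leaves out the counting error of the 4T1 reads. The authors' deposited table gives a log2 fold change of -3.02 with a standard error of 0.77 and an adjusted p of 0.004. The library peak lists hold a peak at this position in both 4T1 libraries and neither 4T1-U1-ASO library, and also in 1 4T07, 1 67NR and 1 168FARN library.

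A change in usage can come from the site, from the last exon or from both, so each was tested alone with edgeR's quasi-likelihood test on the recovered reads, at the authors' scaling. Last-exon reads fell in 10 of the 12 genes at an adjusted p under 0.05, and the background was 54.9% lower and 9.37% higher among 1131 genes. The edgeR log2 fold changes were -2.20 for Hnrnpl, -2.13 for Hnrnpab and -2.10 for Hnrnpd, all with adjusted p values under that limit (0.000298, 0.000351 and 0.000298). Those for Hnrnpc, Hnrnpa2b1 and Sfpq were -1.42, -1.40 and -1.18, against a median of -0.66 over all listed genes. Hnrnpll, Hnrnpm, Hnrnpdl and Hnrnph1 lay between -0.70 and -0.95. In the authors' normalized signal the last exon of Hnrnpl measured 569.6 and 496.7 in 4T1-U1-ASO, against 2755 and 2147 in 4T1. For Hnrnpd it measured 299.2 and 266.5 in 4T1-U1-ASO, against 1174 and 1250 in 4T1. The last exon of Sfpq measured 586.4 and 533.7 in 4T1-U1-ASO, against 1214 and 1324 in 4T1. In each of these genes both 4T1-U1-ASO libraries were under both 4T1 libraries. Hnrnpu did not pass, with 1314 and 1099 in 4T1-U1-ASO and 1269 and 2410 in 4T1, groups that overlap (log2 fold change -0.61, edgeR adjusted p = 0.103). Rbfox2 measured 480.3 and 483.3 in 4T1-U1-ASO and 439.3 and 347.5 in 4T1 (log2 fold change 0.29, edgeR adjusted p = 0.209). In bulk RNA, fewer transcripts reaching the last exon and less RNA of the gene in all cannot be told apart.

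These falls depend on how the libraries are scaled. Scaled by the read totals of the peak lists, the median over all listed genes moved to -0.05, and 5 genes had lower last-exon reads at an edgeR adjusted p under 0.05: Hnrnpl (-1.58), Hnrnpab (-1.52), Hnrnpd (-1.50), Hnrnpc (-0.81) and Sfpq (-0.58). Over all 1131 listed genes, 293 were then lower and 194 higher at that limit. With this scaling by peak-list totals Rbfox2 was higher, with a log2 fold change of 0.91 and an edgeR adjusted p of 0.00906. With TMM, another scaling, Rbfox2 also passed as higher, just under the limit (0.45, edgeR adjusted p = 0.0498). In that fit 110 of 1131 listed genes were higher. At the authors' scaling its log2 fold change was 0.47 without 4T1 replicate 1 and 0.13 without 4T1 replicate 2. At the authors' scaling, calls were also lost without 4T1-U1-ASO replicate 1, among the 10 genes and among all listed genes. Hnrnpl, Hnrnpab, Hnrnpd, Hnrnpc, Hnrnpa2b1 and Sfpq kept theirs. Hnrnpu was lower without 4T1 replicate 1 (edgeR adjusted p = 1.76e-06), and its log2 fold change stood at -0.07 without 4T1 replicate 2.

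**Figure D2:**
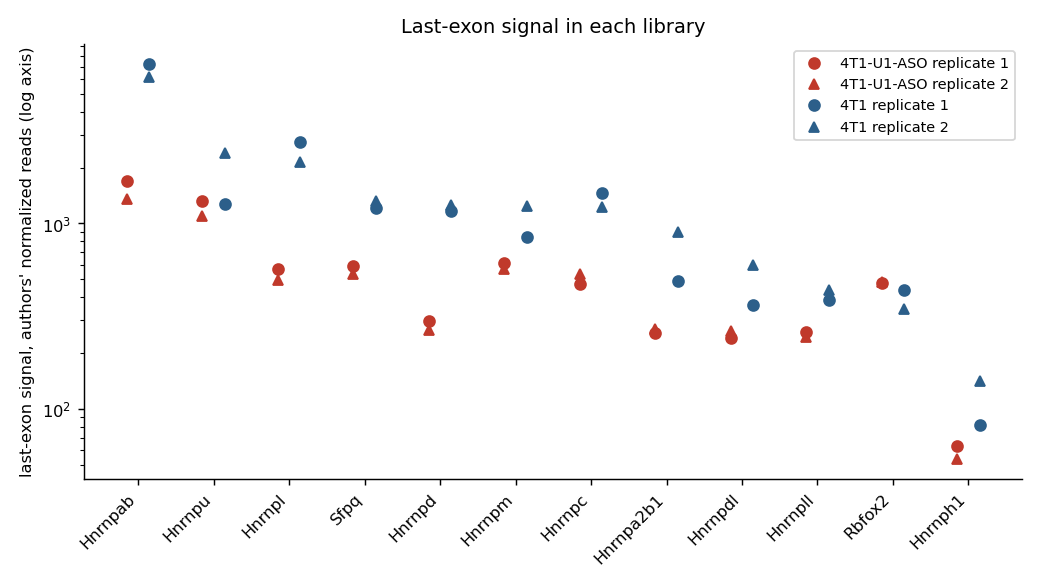
Last-exon signal (authors' normalized reads, log axis) of the 12 genes, with 1 point per library, 4T1-U1-ASO left of 4T1 and replicates told apart by circles and triangles. Both 4T1-U1-ASO points lie under both 4T1 points in 10 genes, the 2 exceptions being Hnrnpu, where they overlap, and Rbfox2, where they lie above. Among all listed genes with a ratio, 850 of 1129 were lower in 4T1-U1-ASO by the sum of the 2 libraries. In how many of them the groups do not overlap was not counted.

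The promoters of Sfpq, Hnrnpl, Hnrnpd, Hnrnpab and Hnrnpc are shown because these are the 5 members whose last-exon reads fell under each of the 3 scalings tried and, at the authors' scaling, with each library left out. They were chosen after these values were seen. They run from 250 bases before to 50 bases after the annotated start, 5' to 3' on the gene's strand, from RefSeq on GRCm38.p6 (a later build than that of the sites). Capitals mark CCAAT or its reverse complement ATTGG (the CCAAT box motif), and GGGCGG or its reverse complement CCGCCC (the GC box motif). The windows are chr4:127021051-127021350 (plus strand) for Sfpq, chr7:28810640-28810939 (plus strand) for Hnrnpl, chr5:99978889-99979188 (minus strand) for Hnrnpd, chr11:51606832-51607131 (minus strand) for Hnrnpab and chr14:52103972-52104271 (minus strand) for Hnrnpc.
Sfpq: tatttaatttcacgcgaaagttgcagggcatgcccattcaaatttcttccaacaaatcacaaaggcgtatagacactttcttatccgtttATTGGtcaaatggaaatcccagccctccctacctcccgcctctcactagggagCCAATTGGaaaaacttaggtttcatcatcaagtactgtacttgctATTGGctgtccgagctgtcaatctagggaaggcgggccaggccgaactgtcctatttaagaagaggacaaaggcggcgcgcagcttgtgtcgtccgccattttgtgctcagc
Hnrnpl: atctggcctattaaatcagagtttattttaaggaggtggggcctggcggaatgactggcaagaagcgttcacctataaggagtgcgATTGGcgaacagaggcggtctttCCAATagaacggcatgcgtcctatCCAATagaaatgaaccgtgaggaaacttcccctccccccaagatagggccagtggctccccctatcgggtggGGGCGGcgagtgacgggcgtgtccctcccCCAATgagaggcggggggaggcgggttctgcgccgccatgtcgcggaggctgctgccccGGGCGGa
Hnrnpd: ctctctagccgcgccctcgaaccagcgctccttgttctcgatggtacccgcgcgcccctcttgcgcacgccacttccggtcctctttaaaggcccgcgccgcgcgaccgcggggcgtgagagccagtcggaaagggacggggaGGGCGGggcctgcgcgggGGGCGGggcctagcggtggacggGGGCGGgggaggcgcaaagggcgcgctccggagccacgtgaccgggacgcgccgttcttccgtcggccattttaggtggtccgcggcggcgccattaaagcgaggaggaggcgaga
Hnrnpab: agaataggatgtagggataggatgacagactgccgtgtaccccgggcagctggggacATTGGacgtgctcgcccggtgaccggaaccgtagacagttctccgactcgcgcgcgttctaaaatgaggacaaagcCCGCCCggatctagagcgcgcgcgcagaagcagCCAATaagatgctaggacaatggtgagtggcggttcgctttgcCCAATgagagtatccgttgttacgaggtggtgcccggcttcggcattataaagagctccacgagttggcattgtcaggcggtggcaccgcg
Hnrnpc: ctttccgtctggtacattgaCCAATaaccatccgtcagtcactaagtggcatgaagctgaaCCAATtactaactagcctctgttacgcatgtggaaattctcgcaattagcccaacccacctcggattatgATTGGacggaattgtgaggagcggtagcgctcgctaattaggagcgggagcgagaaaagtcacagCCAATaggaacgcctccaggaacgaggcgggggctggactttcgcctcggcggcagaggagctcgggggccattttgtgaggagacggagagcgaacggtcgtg
Sfpq had 4 CCAAT box matches, 2 of which overlap as a palindrome, and no GC box match. Hnrnpl had 4 matches of the first motif and 2 of the second, Hnrnpd none and 3, Hnrnpab 3 and 1, and Hnrnpc 4 and none. TATAAA or its reverse complement TTTATA was found once in the Hnrnpab window and not in the others, and it lies in 13.6% of all windows. Windows were found for 10 of the 12 genes, 15 windows in all, and their median GC content was 60.0%, against 52.7% over 32851 windows of mouse genes. A CCAAT box match lay in 9 of the 15 windows and in 37.4% of all windows, and a GC box match in 10 of the 15 and in 35.7% of all. These matches describe letters and do not mark binding sites.

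Reads at the site alone rose at 12 of the 19 sites with higher usage by the edgeR test, beside a background of 57.1% higher and 12.1% lower among 1561 sites. The 12 were the 3 Sfpq sites, both Hnrnpc and both Hnrnph1 sites, the downstream sites of Hnrnpd and Hnrnpdl, the second Hnrnpl site, and those of Hnrnpm and Hnrnpu. At Sfpq the edgeR log2 fold changes of site reads were 4.63, 2.89 and 3.19, and these 3 calls held with each library left out. For Hnrnpu the value was 0.96 (edgeR adjusted p = 0.000149). Across all listed sites the median was 1.58. The upstream Hnrnpd site fell by 0.85 on the log2 scale (edgeR adjusted p = 0.00570), although its usage rose. This call was lost without either of the 4T1-U1-ASO libraries, and scaled by peak-list totals the value was -0.24 and did not pass. The other 6 sites did not pass: Hnrnpa2b1 (0.43), the Hnrnpab sites (-0.59 and -0.73), the upstream Hnrnpdl site (0.84), the first Hnrnpl site (0.04) and Hnrnpll (1.33). Reads at the Rbfox2 site fell (edgeR adjusted p = 0.000553), a call that was lost without 4T1 replicate 2. Fewer sites passed as higher with any 1 library left out, among members and over all listed sites. The median log2 fold change over all listed sites stayed between 1.56 and 1.68 in these fits.

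**Figure D3:**
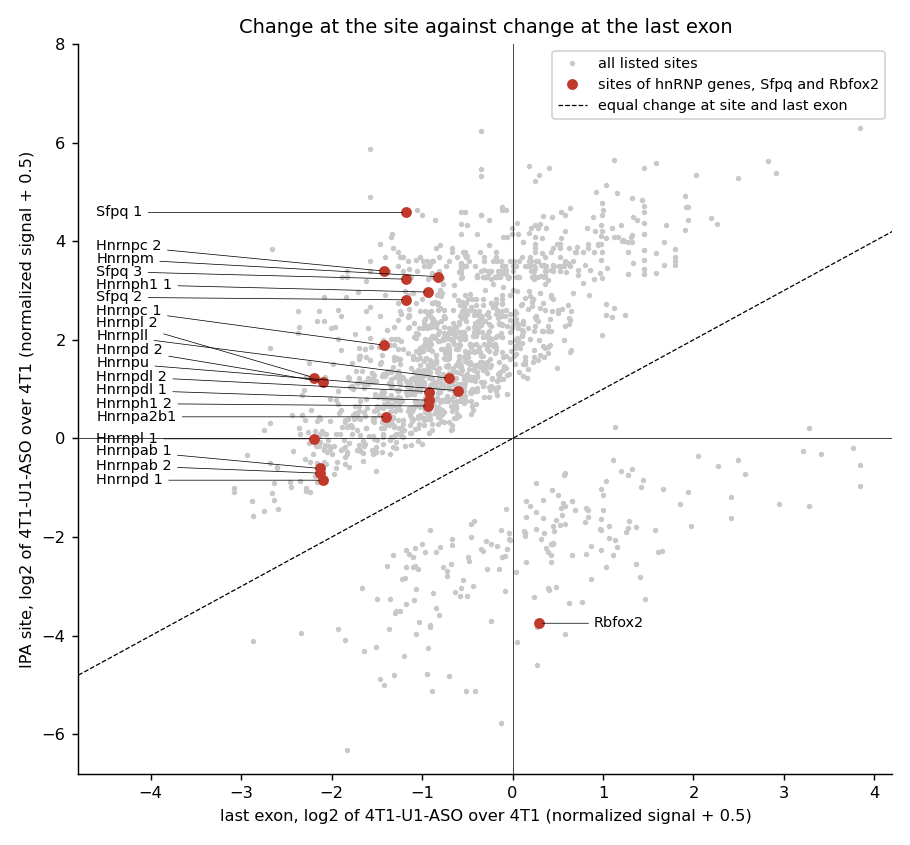
Log2 ratio of 4T1-U1-ASO over 4T1 (authors' normalized signal + 0.5) at the site (vertical axis) and at the last exon of its gene (horizontal axis) for all 1561 listed sites in grey and the 20 member sites in red, named by gene and site number. The 3 Sfpq sites lie high on the left, the Hnrnpab sites and the first sites of Hnrnpd and Hnrnpl lie at or under 0 on the vertical axis, and Rbfox2 lies below the dashed line of equal change.

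Between lines, 20 hnRNP family genes were looked for and none was listed in any of the 4 comparisons, and Rbfox2 was in none of them. Sfpq was listed in 2. No member stood among the 214 sites of 4T07 against 67NR or the 85 sites of 4T1 against 168FARN. The tables list only sites that passed, so the usage of the unlisted hnRNP sites in the lines was not analysed here.

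In 4T1 against 67NR, usage fell at a Sfpq site, chr4:126704982-126705573, which starts at the same base as the first site of the U1 comparison. The filtered peak list of 67NR replicate 1 has no peak at this site, and that of 67NR replicate 2 does not hold chromosome 4. Apart from 4T1-U1-ASO, only the list of 168FARN replicate 1 has a peak there, with 4 reads. The site had 0 and 5 reads in 4T1, against 13 and 51 reads in 67NR. All 4 values are low beside last-exon reads of 1746 and 2533 in 4T1 and 2725 and 2716 in 67NR. This gave 4T1 a usage of 0.0985% ± 0.139, and 67NR one of 1.16% ± 0.968 (SD, n = 2 each), with 67NR replicate 2 highest at 1.84%. The log2 fold change was -1.83 with a standard error of 0.53 and an adjusted p of 0.035 in the authors' deposited table, with the sign turned to give 4T1 over 67NR. Of the 122 sites listed, 76.2% were lower, and by edgeR 77.5% of 120 were lower relative to the last exon and 68.3% in site reads alone. Site reads alone were lower by edgeR (log2 fold change -3.29, adjusted p = 0.00768), while last-exon reads were not (-0.03, edgeR adjusted p = 0.944). Without 4T1 replicate 1 the site reads no longer passed (-2.43, edgeR adjusted p = 0.111). Relative to the last exon the edgeR log2 fold change was -3.26 with all libraries (adjusted p = 0.000487). It was -2.54 without 4T1 replicate 1, -3.94 without 67NR replicate 1 and -1.97 without 67NR replicate 2 (edgeR adjusted p = 0.0388 for the last). Without 4T1 replicate 2 no read was left in 4T1, and the site still passed (edgeR adjusted p = 0.00572).

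In 4T07 against 168FARN, usage rose further downstream in Sfpq, at chr4:126711257-126712745, a span that covers the second and the third sites of the U1 comparison. It had 13 and 12 reads in 4T07, against 2 and 4 reads in 168FARN. This gave 4T07 a usage of 0.630% ± 0.127, and 168FARN one of 0.156% ± 0.0600 (SD, n = 2 each), so that both 4T07 libraries were above both 168FARN libraries while all 4 stayed under 1%. The authors' deposited table gives a log2 fold change of 1.48, a standard error of 0.49 and an adjusted p of 0.048. In that comparison 20.4% of the 329 listed sites were higher, and by edgeR 19.9% of 321, both relative to the last exon and in site reads alone. Site reads alone were higher by edgeR (2.07, adjusted p = 0.000755), and last-exon reads were not past the threshold at the authors' scaling (0.15, edgeR adjusted p = 0.184). With TMM scaling they passed as higher (0.26, edgeR adjusted p = 0.00991), as did 165 of 284 listed genes in all. With peak-list totals they did not pass (0.10, edgeR adjusted p = 0.326).

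Sfpq usage cannot be read across tables without care. For the same 4T1 libraries, the last exon had 1746 and 2533 reads in the table against 67NR, which is 1.99 and 1.98 times the 876 and 1280 reads in the U1 table. Among 28 genes with at least 20 last-exon reads in both tables, 20 were within 10% and 8 were over 1.5 times higher, Sfpq among them.

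**Figure D4:**
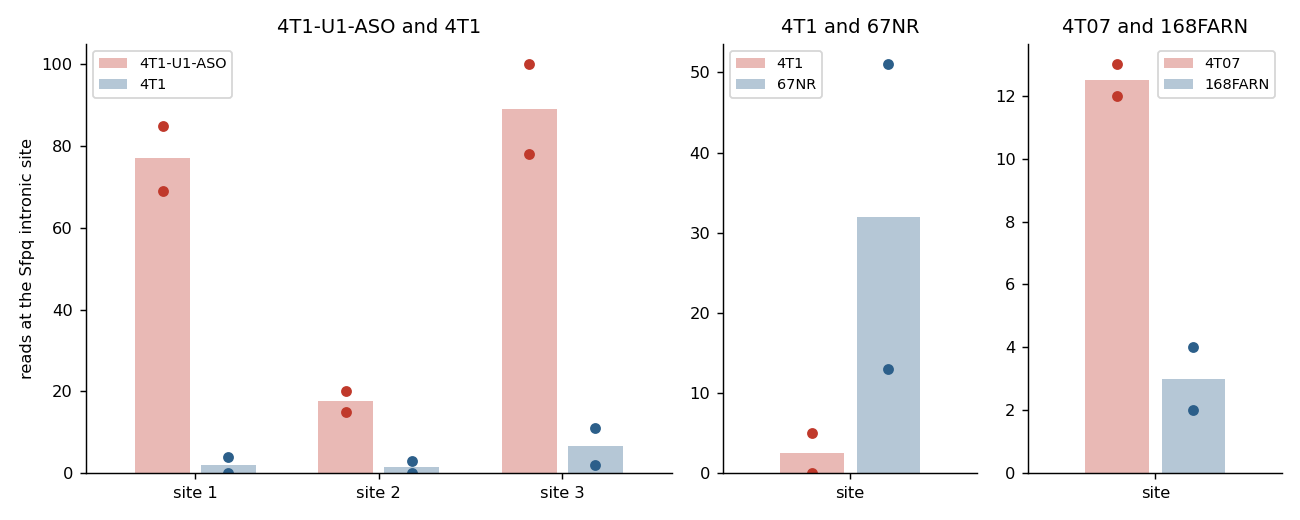
Reads at the intronic sites of Sfpq (vertical axes, each from 0 and on its own scale) in the 3 comparisons that list the gene, with bars for the mean of 2 libraries and points for each library. The first-named group of each panel is drawn left: 4T1-U1-ASO is above 4T1 at all 3 sites, 4T1 is below 67NR and 4T07 is above 168FARN.

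The peak lists of single libraries give another view of the 19 sites that were higher under U1 block. These sites were listed for being higher in 4T1-U1-ASO, so the counts are a description. A peak overlapped 18 and 15 of them in the 2 4T1-U1-ASO libraries, against 11 and 11 in 4T1. Of all listed sites that were higher, 72.7% and 67.3% had a peak in 4T1-U1-ASO, against 26.4% and 31.8% in 4T1 on the chromosomes each list holds. The lists themselves differ in length, with 100236 and 98270 peaks in 4T1-U1-ASO and 54210 and 66543 in 4T1, and the part of this in the counts was not tested. In the other lines a peak overlapped 12 and 12 of the 19 sites in 4T07, 11 and 13 in 168FARN and 12 in 67NR replicate 1. Of all listed sites that were higher, 34.5% and 34.9% had a peak in 4T07 and 30.7% and 32.2% in 168FARN. In 67NR replicate 1 this share was 34.3%. The list of 67NR replicate 2 holds 10 chromosomes only, with 9 of the 19 sites on them, 6 of which had a peak. On these chromosomes 42.0% of all listed sites that were higher had one. Peak lists held 1427728 to 3347776 reads. The lists are filtered, since the first Sfpq site has no peak in 4T1-U1-ASO replicate 2, where the table gives 69 reads. A missing peak is therefore not a count of 0. At the third Sfpq site, peaks held 100 and 78 reads in 4T1-U1-ASO. The same position had 8 and 11 reads in the 4T07 lists and no more than 5 in the lists of 4T1, 168FARN and 67NR replicate 1.

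Other RNA-binding proteins were compared as counts. Under U1 block, where 87.6% of all listed sites were higher, 10 of the 20 hnRNP family genes were listed, with 16 sites, all higher. Only sites that passed are listed, so the share of all tested genes that were listed is unknown. The counts of listed genes, here and for the groups below, are therefore a description without a background. Among 17 Rbfox, muscleblind, CELF and related regulators, Celf1, Mbnl2 and Rbfox2 were listed, with 2 sites higher and 1 lower. Of 15 binders of pyrimidine-rich or U-rich RNA, 6 were listed, with 9 sites, all higher. Between lines, 17.8% of the 214 sites of 4T07 against 67NR were higher, and that comparison listed Celf4 (higher) and Pcbp2 and Tia1 (1 site higher and 1 lower in all). In 4T07 against 168FARN, where 20.4% of sites were higher, Celf4 and Qk had 1 site higher and 1 lower, and Pcbp2 had 2 sites, 1 in each direction. Neither comparison of 4T1 with another line listed a gene of these lists. By the smallest adjusted p, 3 non-members are named: Fubp1 and Elavl1 under U1 block, and Celf4 in 4T07 against 67NR. The leading Fubp1 site had 54 and 47 reads in 4T1-U1-ASO, against 0 and 7 in 4T1. At Elavl1 the counts were 9 and 6 in 4T1-U1-ASO and none in 4T1, and at Celf4 14 and 11 in 4T07 and none in 67NR. Of the markers of epithelial and mesenchymal cells, 2 of 5 and 4 of 5 appear in the tables as genes with a listed IPA site, which gives no gene level, so the identity of the lines was not tested.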

How the data were processed

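3'-end sequencing libraries (poly(A)+ RNA from 5 µg total RNA, 13 PCR cycles, fragments of 200 to 300 bp, 50-nt single-end reads, per the labels' protocols) were analysed from the deposited tables and peak lists. Per the submitters' processing notes, the build was mm9 and the tools were DESeq2 1.4.5, Bowtie2 2.2.5, bedtools 2.17.0 and SAMtools 1.1, with no roles given. How reads with several matches were counted is not stated, which leaves genes with near-identical copies, frequent in the hnRNP family, uncertain. Per the file headers, the authors deposited for each listed site a log2 fold change, a standard error, a test statistic (a score), a p-value and adjusted p-value, and a normalized read signal at the site and the last exon in each library. The deposited peak lists hold whole-number read counts per peak and library. No site with an adjusted p above 0.1 stands in the authors' tables; sites were called intronic on the authors' word, and coordinates are 1-based. The sign of the log2 fold change was turned for the tables against 67NR and matched usage at all 2311 rows.

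Whole reads were recovered from the normalized signal (100% of values whole within 0.1 read), and usage computed from them as mean ± SD. The authors' deposited calls are the main result. edgeR 4.0.16 (R 4.3.3, quasi-likelihood, Benjamini-Hochberg adjusted p under 0.05, at least 10 reads over 4 libraries for the model of the site relative to the last exon) was fitted on all listed sites of a comparison. Since the authors had selected these sites, and all 1561 of the U1 comparison pass, the p-values add no independent evidence. On simulated data for the U1 comparison with a dispersion of 0.05, the model of the site relative to the last exon recovered 50.5% of sites changed by 2 and 76.8% of those changed by 3 log2 units, with 6 calls among 1284 unchanged sites. The dispersion was set by hand, and most simulated sites were unchanged and none was selected. These figures therefore check the code and do not give error rates for the listed sites. Alternatives were DESeq2 1.42.0, stricter thresholds, TMM, leaving out libraries in turn, a block on replicate number and no read filter; a library block, TMM for reads alone and scaling by peak-list totals were added after seeing the data.

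Replicate numbers were not taken as pairs, since each comparison has 2 pairs only and no label ties them. A floor of 3 reads stands for a count of 0, and intervals use Python 3 libraries (scipy). The members, gene lists and tests were chosen with earlier results of these data known. All member sites are named, with at most 4 other regulators, those with the smallest deposited adjusted p; 1 of these and its gene list are not reported here. Of the 12 member symbols, 12 matched RefSeq. No mm9 genome or annotation was used here.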

Additional observations from a re-analysis of the deposited data

How the results depend on the processing

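The direction held for all 22 member sites under the alternatives run. Stricter deposited thresholds keep the deposited fold change, so the direction could not turn there. In the U1 comparison the fit without a read filter was the same fit, since all 1561 sites were tested either way. The other alternatives refit the same reads at sites the authors had selected, so staying past the threshold adds no independent support. Over 264 combinations of a site and an alternative, 242 stayed past the threshold and 22 did not, 17 of these through stricter deposited thresholds and 5 through leaving out 1 library. At a deposited adjusted p of at most 0.01, the count of member sites was 9 in 4T1-U1-ASO against 4T1, 0 in 4T1 against 67NR and 0 in 4T07 against 168FARN, against 20, 1 and 1 at 0.1. At 0.05 it was 16, 1 and 1. All 1561, 122 and 329 listed sites of these comparisons pass at 0.1. How many of them pass the stricter limits was not counted, so the member losses have no background beside them. With 1 library left out, edgeR lost calls in the U1 comparison, among members and over all listed sites. The lost member calls were the upstream Hnrnpdl site (without 4T1-U1-ASO replicate 1, and without 4T1 replicate 2), and both Hnrnpab sites and the first Hnrnpl site (without 4T1-U1-ASO replicate 2). The 1 site of 4T1 against 67NR and the 1 site of 4T07 against 168FARN passed with each library left out. Deviations of same-numbered libraries correlated at -0.03 in the U1 comparison, 0.22 in 4T1 against 67NR, 0.03 in 4T07 against 67NR, 0.15 in 4T1 against 168FARN and 0.13 in 4T07 against 168FARN. With the replicate number as a block, edgeR gave 20 member sites in the U1 comparison and 1 in each of the 2 with a Sfpq site. The block left the number of genes with fewer last-exon reads at 10 and gave 10 sites with more reads at the site, against 12. Over all 1131 listed genes it gave 586 with fewer last-exon reads, against 621 at the authors' scaling. Over all 1561 listed sites it gave 682 with more site reads, against 891. With peak-list totals, 5 genes had fewer last-exon reads, against 10, and 15 sites had more site reads. With TMM the counts were 7 and 11. Over all listed genes and sites these counts were 293 and 1199 with peak-list totals, and 545 and 888 with TMM. Leaving out 1 library gave 6 to 11 genes with fewer last-exon reads and 3 to 8 sites with more site reads. The numbers over all listed genes and sites changed as well with 1 library left out, so these shifts are not particular to the members. The median usage in 4T1-U1-ASO was 5.23% from recovered reads and from the deposited values. A peak was found in 126 of 190 pairs of a site and a library, at any overlap or at least 50% overlap. At the sites with no read in a group, depth sets the limit that a count of 0 allows: a usage of 0.134% at the second Hnrnpc site and 0.165% at the Hnrnpm site in 4T1, and 0.247% at the Rbfox2 site in 4T1-U1-ASO. The cause of the changed calls was not tested.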
